A study of Mus musculus with 48 samples.

Results

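Some of the amygdala punches profiled by RNA sequencing carried large amounts of *Ttr*, the transcript of transthyretin, and others next to none. *Ttr* encodes the thyroid hormone carrier that choroid plexus epithelium makes in bulk and that neurons and glia hardly make. Libraries were chosen by their *Ttr* level alone. The 12 libraries with at least 500 TPM of *Ttr* are called high libraries here and the 31 with less than 20 TPM low libraries, out of 48, and the other 5 lay between these limits. TPM is a transcript level scaled for gene length and for the total of a library. Since *Ttr* itself chose the libraries, every difference between high and low libraries, that of *Ttr* included, is a description and carries no test. Tests were made between the labelled groups. The question is which other genes went with *Ttr*, and whether high libraries were spread evenly over the groups of the study.

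The 48 libraries came from female mice, young adults per the study's methods, 8 in each of 6 groups. The labels give the strain as C57BL/6NTac-Brd1 for all 48. Mice were WT or Brd1+/-, which is heterozygous for a targeted deletion of *Brd1* in the whole animal, and had received saline vehicle, 1 of 2 antidepressants. These were the tricyclic imipramine (IMN) at 10 mg/kg and the selective serotonin reuptake inhibitor fluoxetine (FLX) at 5 mg/kg. Per the study's methods all mice, vehicle mice included, were injected subcutaneously and had gone through behavioural tests that ended with forced swimming shortly before the brains were taken, and the right amygdala was punched from frozen coronal slices with a needle. *Brd1*, the targeted gene, ranged from 24.9 to 41.0 TPM (median 36.3) in 24 WT libraries and from 16.6 to 30.6 TPM (median 25.2) in 24 Brd1+/- libraries, so that the genotypes overlapped in range. Libraries listed between 23420 and 27252 genes above 0, no pair of libraries held identical values, and TPM does not retain the sequencing depth, which is therefore unknown.

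Choroid plexus is a fold of secretory epithelium over a core of capillaries and stroma that hangs in the brain ventricles and makes cerebrospinal fluid. Its epithelial cells pump ions and water from blood to fluid, carry folate, hormones and vitamins across, secrete growth factors and carrier proteins, and are sealed by tight junctions. They are continuous with the ependyma, the lining of the ventricles, whose cells carry motile cilia. Genes of these functions were followed as a list of 50 choroid plexus epithelium genes in 7 roles, with *Ttr* left out, next to 14 lists for other cell types and neighbouring regions.

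*Ttr* spanned a wide range even among the high libraries. The lowest was Brd1+/- FLX replicate 4 at 507 TPM, the median 2422 TPM and the highest WT vehicle replicate 1 at 28369 TPM, where *Ttr* alone made up 2.84% of all TPM. Brd1+/- FLX replicate 8 followed at 27594 TPM and Brd1+/- vehicle replicate 3 at 10275 TPM. Low libraries ran from 0 to 17.4 TPM with a median of 5.42 TPM. Just outside the upper limit stood Brd1+/- vehicle replicate 7 at 180 TPM, and just inside the lower one WT vehicle replicate 5 at 17.4 TPM, with Brd1+/- vehicle replicate 6 at 29.1 TPM above it. Thus no library stood between 180 and 507 TPM.

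**Figure D1:**
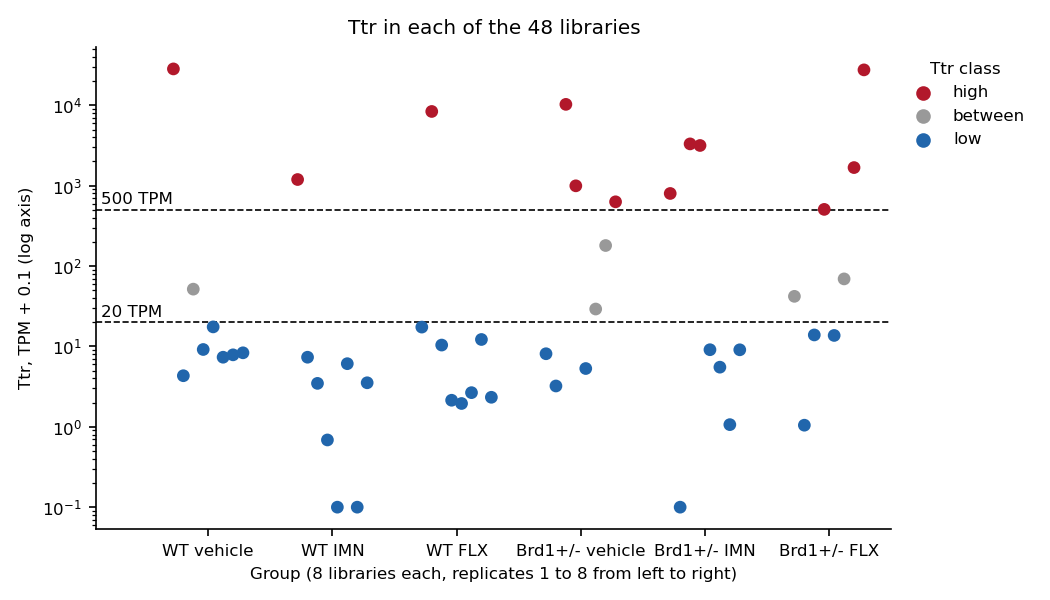
*Ttr* level (TPM + 0.1, log axis) of each library in the 6 groups of 8, with dashed lines at 500 and 20 TPM and colours for high, between and low libraries. Each WT group has 1 library above the upper line and each Brd1+/- group has 3.

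Genes of the choroid plexus list followed *Ttr* almost throughout. Of the 50 members, all of which passed the filter on low values, 49 had a higher mean log2 level in high than in low libraries against 17511 or 62.7% of all 27943 genes tested other than *Ttr*, and 44 were higher by at least 1 on the log2 scale. Among all genes 905 or 3.24% were higher by that much and 198 or 0.709% lower, numbers that became 2198 and 782 with a pseudocount of 0.01 and 285 and 26 with a pseudocount of 1. The median difference of the list was 2.66 (range −0.13 to 8.32), against 0.06 over all genes. In 14 members every high library lay above every low library, which held for 18 genes or 0.0644% of all genes tested, and for 0 genes or 0.0% in the opposite direction. The 18 became 62 with high libraries from 1000 TPM and 28 without Brd1+/- vehicle replicate 8. Because the samples were divided by a choroid plexus transcript, these counts describe which genes travel with it and are no independent evidence. Members such as *Krt8* and *Folr1*, listed at 0 in 31 and 28 of the 31 low libraries, could pass the filter only through libraries with more *Ttr*. The direction of such members was largely set by the filter. In bulk tissue a larger number of cells of a type and more RNA per cell cannot be told apart.

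**Figure D2:**
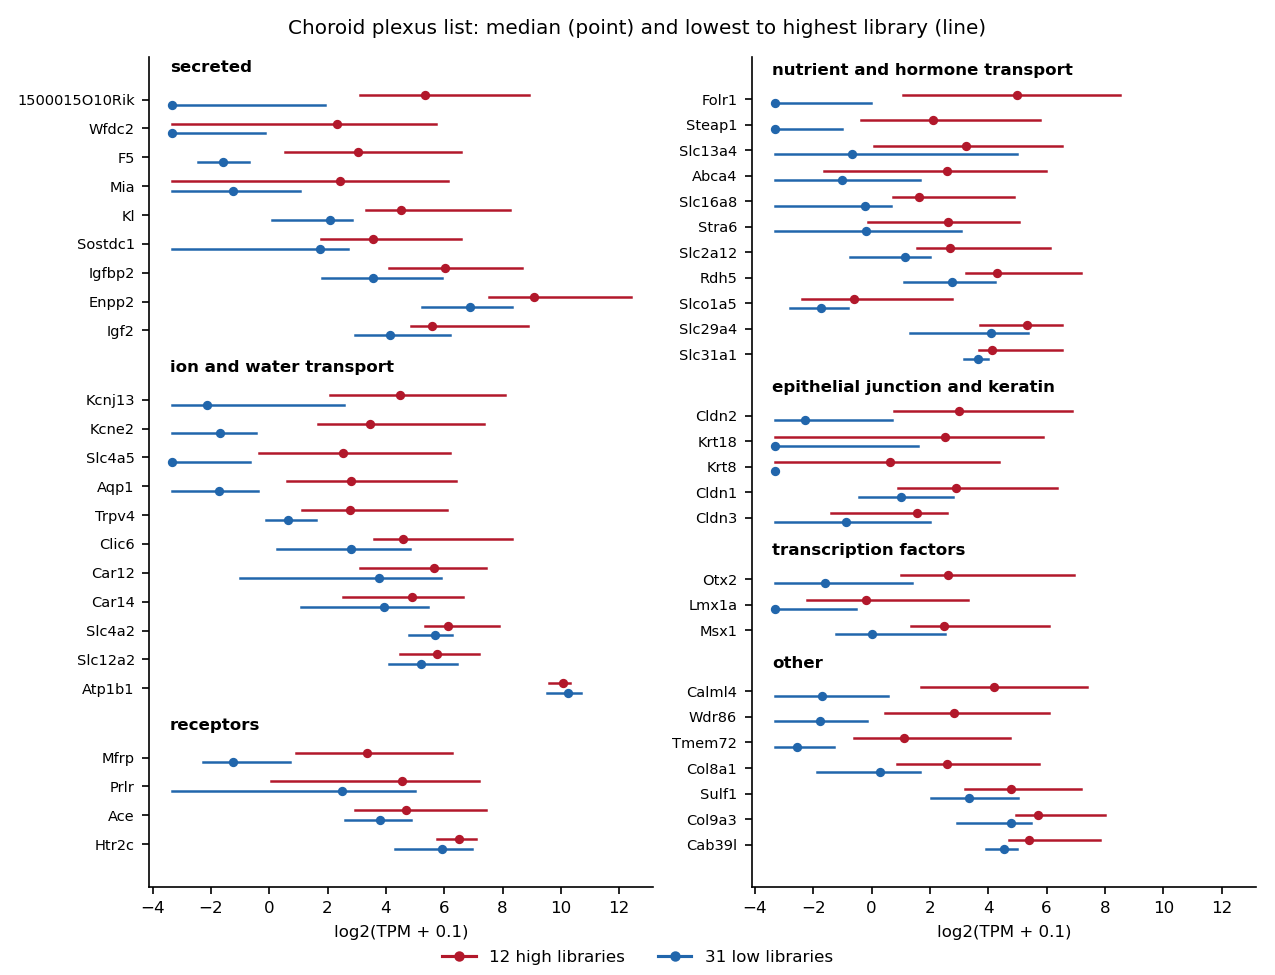
Median (point) and range (line) of log2(TPM + 0.1) for the 50 members of the choroid plexus list by role, in 12 high and 31 low libraries. *1500015O10Rik*, *Folr1* and *Kcnj13* are the furthest apart, and *Atp1b1* overlaps between the classes, with a lower median in high libraries.

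Among secreted products, *1500015O10Rik* had the largest difference of all genes tested at the pseudocount used, 8.32 on the log2 scale. The gene (GRCm38 chromosome 1, 43730602 to 43742578, plus strand) encodes the precursor of the peptide augurin. It was listed at 0 in 25 of 31 low libraries and reached 3.67 TPM in the highest of them, whereas high libraries held 8.49 to 475 TPM with a median of 40.4 TPM. *F5*, coagulation factor V, ranged from 0.0850 to 0.516 TPM (median 0.230) in low and from 1.36 to 94.7 TPM (median 8.24) in high libraries. *Kl*, which encodes the ageing-related co-receptor and hormone Klotho (chromosome 5, 150952607 to 150993817), ranged from 0.966 to 7.05 TPM (median 4.11) in low and from 9.93 to 306 TPM (median 22.6) in high libraries. For these 3 secreted products the classes did not overlap.

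The most abundant secreted member, *Enpp2*, behaved differently. *Enpp2* (chromosome 15, 54838901 to 54952892, minus strand) encodes autotaxin, which makes lysophosphatidic acid and which oligodendrocytes make as well as choroid plexus. Its level was 38 to 323 TPM (median 118) in low libraries and 186 to 5367 TPM (median 544) in high libraries, a difference of 2.57 on the log2 scale. High libraries exceeded every low library in 9 of 12 cases. The summed level of 6 oligodendrocyte genes lay between 642 and 10380 TPM in low and between 853 and 16268 TPM in high libraries, and its part in the *Enpp2* level was not tested. *Igf2* and *Igfbp2*, a growth factor and a protein that binds it, likewise started from measurable levels in low libraries (medians 17.5 and 11.6 TPM) and had medians of 47.3 and 64.9 TPM in high libraries, with log2 differences of 2.1 and 2.57. All 9 secreted members were higher by at least 1, with a median of 3.36.

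Of the 11 genes of ion and water transport, 7 were higher by at least 1 and 3 separated the classes. *Aqp1*, the water channel of the apical membrane (chromosome 6, 55336432 to 55348555), ranged from 0 to 0.672 TPM (median 0.203) in low libraries and from 1.43 to 84.6 TPM (median 6.94) in high ones. *Kcne2*, an accessory subunit of potassium channels, held 0 to 0.624 TPM (median 0.209) in low and 3.08 to 165 TPM (median 11.0) in high libraries. *Slc4a5*, a sodium bicarbonate cotransporter, was listed at 0 in 23 low libraries, with a maximum of 0.529 TPM, and ran from 0.678 to 74.0 TPM (median 5.69) in high ones. The inward rectifier *Kcnj13* differed more (6.91) but overlapped. Its 12 high libraries held 4.11 to 269 TPM, and 10 of them exceeded every low library because of a single low library, WT FLX replicate 6, at 5.82 TPM.

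Other transport genes of the same list hardly moved. *Atp1b1*, a subunit of the sodium pump that neurons also use, had 739 to 1635 TPM in low and 774 to 1274 TPM in high libraries, a difference of −0.13. *Slc12a2*, the sodium-potassium-chloride cotransporter, had medians of 37.1 and 54.4 TPM and a difference of 0.48, and the bicarbonate exchanger *Slc4a2* had medians of 50.9 and 69.9 TPM and a difference of 0.77. The carbonic anhydrase *Car14* differed by 0.79. These genes had sizeable levels where *Ttr* was near 0, as did *Htr2c*, the serotonin receptor, with medians of 60.4 TPM in low and 91.3 TPM in high libraries (difference 0.58). Of the 50 members, 23 had a mean under 1 TPM in low libraries and 15 had a mean of at least 10 TPM.

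Carriers of nutrients and hormones were led by *Folr1*, the folate receptor of the epithelium (chromosome 7, 101858331 to 101870788, minus strand). It was listed at 0 in 28 of 31 low libraries and reached 0.875 TPM there, against 1.99 to 370 TPM with a median of 31.3 TPM in high libraries. *Steap1*, of a family of metalloreductases, had 0 to 0.392 TPM (median 0) in low and 0.677 to 54.3 TPM (median 4.20) in high libraries. *Slc16a8*, a lactate transporter, had 0 to 1.47 TPM in low and 1.57 to 29.4 TPM in high libraries, so its classes only just separated. *Slc13a4*, a sulfate transporter that fibroblasts of the meninges also make, reached 31.8 TPM in a low library, and 3 of 12 high libraries exceeded that. In this role 10 of 11 members were higher by at least 1, the exception being the copper transporter *Slc31a1* at 0.95.

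The epithelial and regulatory genes gave the same picture at lower levels. The tight junction gene *Cldn2* (chromosome X, 139800828 to 139811386) ranged from 0 to 1.53 TPM (median 0.106) in low and from 1.62 to 118 TPM (median 7.86) in high libraries. The keratin gene *Krt8* was listed at 0 in all 31 low libraries and reached 20.4 TPM in high ones, 10 of which listed it above 0. *Otx2*, a homeodomain transcription factor needed for choroid plexus development, had 0 to 2.52 TPM (median 0.234) in low libraries. High libraries held at least 1.91 TPM of *Otx2* (median 6.02), and 10 of 12 exceeded every low library (difference 5.2). *Msx1* and *Lmx1a*, other homeodomain factors of the dorsal midline, differed by 2.95 and 3.16 and overlapped. Among receptors, *Mfrp*, a frizzled-related membrane protein, separated the classes (0.108 to 1.55 against 1.79 to 76.3 TPM), and the prolactin receptor *Prlr* did not (0 to 32.1 against 0.953 to 147 TPM). In the remaining role *Calml4*, a calmodulin-like gene, *Wdr86* and *Tmem72* separated the classes with differences of 5.94, 4.80 and 4.03.

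Outside the list 4 more genes had every high library above every low one. *Prr32* was listed at 0 in each low library and held 1.73 to 88.4 TPM in high libraries (median 5.93). *Col8a2*, a chain of collagen VIII, had 0.0779 to 0.988 TPM in low and 1.04 to 65.9 TPM in high libraries. *Ak7*, an adenylate kinase of motile cilia, had 0 to 1.03 TPM and 1.46 to 39.4 TPM. *Krt8-ps* is a processed pseudogene of *Krt8* whose reads could come from *Krt8* itself, so that its level (at most 0.0942 TPM in low and 0.153 to 6.02 TPM in high libraries) is uncertain. *Lbp*, which encodes the lipopolysaccharide-binding protein and was singled out after its values were seen, had 1.07 to 98.3 TPM in high and 0 to 2.48 TPM in low libraries, with 11 of 12 high libraries above every low one.

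Within the high libraries, levels were next read relative to *Ttr*. *Ttr* varied 55.9-fold between the lowest and the highest high library, with an SD of 2.05 on the log2 scale. For each gene the SD of its log2 ratio to *Ttr* over the 12 libraries tells how tightly it followed, and a gene that did not vary with *Ttr* would have an SD near that of *Ttr*. The median over the 46 members with a value above 0 in each high library was 0.65, against 2.09 over the 19803 genes for which this could be computed. The SD was under 0.5 in 12 members, from 0.5 to under 1 in 20 and 1 or more in 14. *Aqp1* had the steadiest ratio of these members, 2.67 to 3.37 TPM per 1000 TPM of *Ttr* (SD 0.11), a 1.26-fold range. *1500015O10Rik* had 13.5 to 19.2 TPM per 1000 TPM of *Ttr* (SD 0.14) and *Kcnj13* 6.53 to 11.3 TPM (SD 0.20). Within the 12 high libraries these 3 genes thus kept near-constant proportions to *Ttr*. *Folr1* was less steady, 3.16 to 20.4 TPM per 1000 TPM of *Ttr* (SD 0.65), its lowest ratio being in Brd1+/- vehicle replicate 8, where *Folr1* stood at 1.99 TPM.

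**Figure D3:**
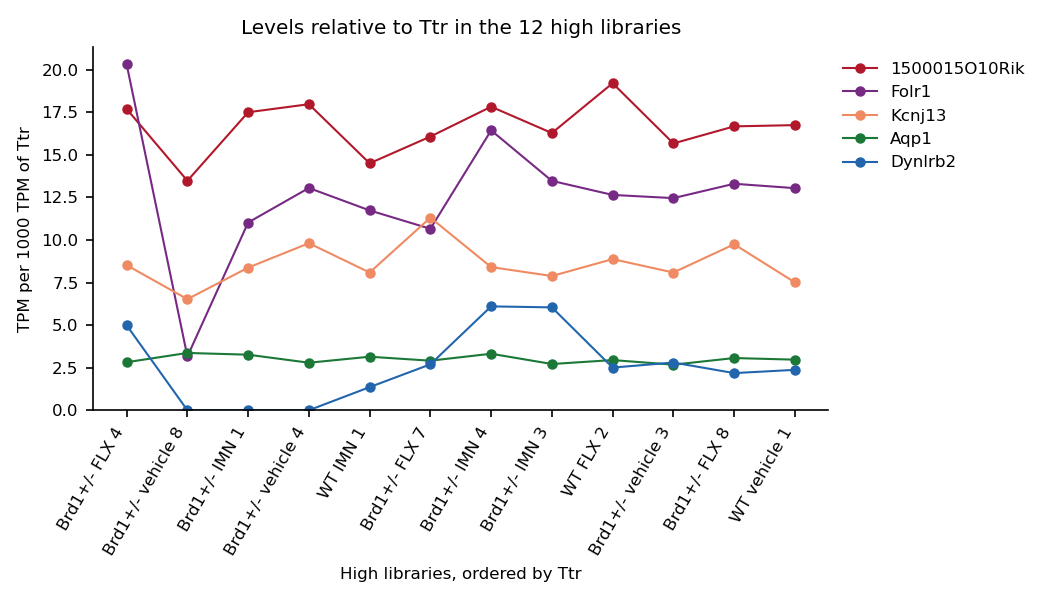
Level of 5 genes per 1000 TPM of *Ttr* in the 12 high libraries, ordered from the lowest to the highest *Ttr*. *Aqp1* stays between 2.67 and 3.37, while *Folr1* runs from 3.16 to 20.4 and *Dynlrb2* is at 0 in 3 libraries.

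Members with sizeable levels in low libraries differed in how closely they followed. The SD of the log2 ratio was 2.12 for *Atp1b1*, 1.87 for *Htr2c* and 1.71 for *Slc12a2*, against 2.05 for the log2 level of *Ttr*. It was 0.51 for *Igfbp2*, 0.71 for *Ace*, the angiotensin-converting enzyme, and 0.71 for *Enpp2*, whose ratio ran from 165 to 945 TPM per 1000 TPM of *Ttr*. In 47 of the 50 members the highest 2 of the high libraries were WT vehicle replicate 1 and Brd1+/- FLX replicate 8, the same as for *Ttr*. The same held for 13 of the 15 genes of ependyma and motile cilia, and the share over all genes was not computed. Summed over the 23 members with a mean under 1 TPM in low libraries, the level was 2.79 to 22.6 TPM in low, 5.36 to 39.0 TPM in between and 44.8 to 2368 TPM in high libraries.

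**Figure D4:**
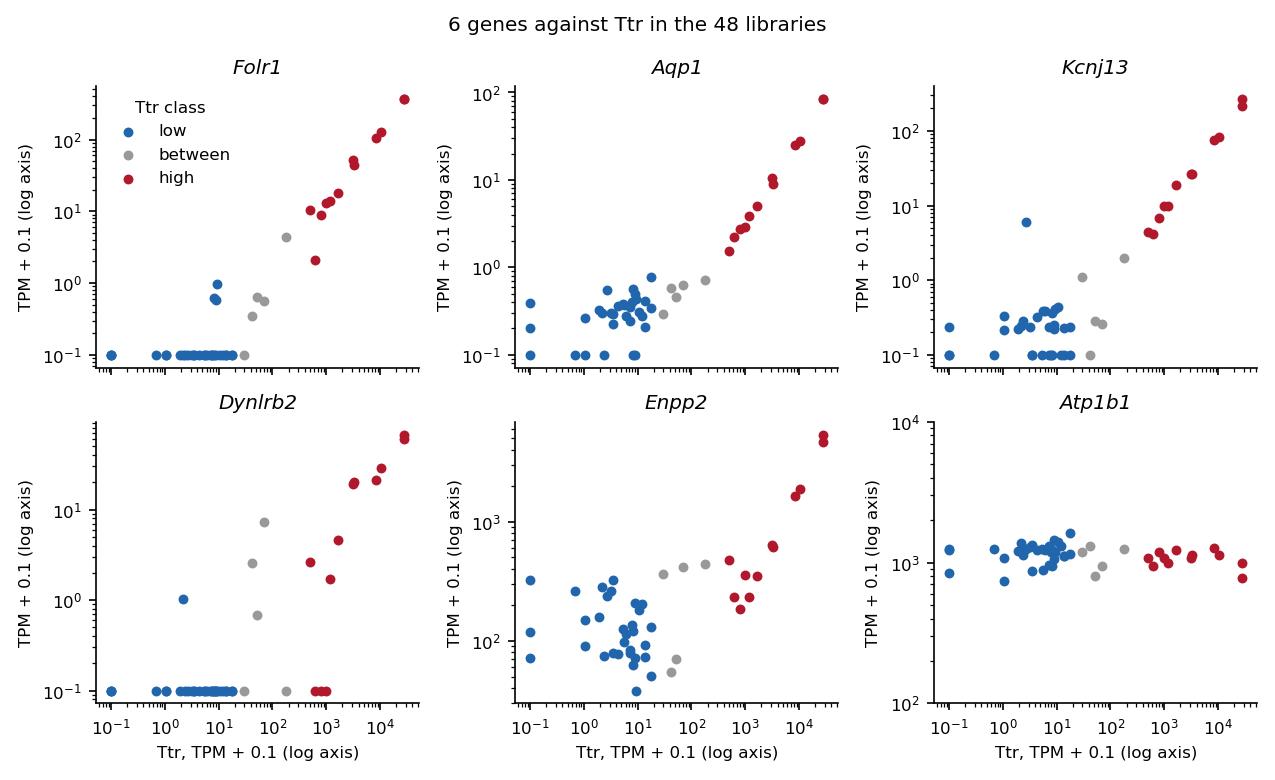
Levels of 6 genes against *Ttr* in 48 libraries (TPM + 0.1, log axes), coloured by class. *Folr1*, *Aqp1* and *Kcnj13* climb with *Ttr* in the high libraries, *Dynlrb2* does so with gaps at 0, *Enpp2* climbs from a raised floor and *Atp1b1* stays level.

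The 5 libraries between the limits held small amounts of *Ttr*. Brd1+/- vehicle replicate 7, with 180 TPM of *Ttr*, held 4.30 TPM of *Folr1* and 7.65 TPM of *1500015O10Rik*, each above every low library. Brd1+/- FLX replicate 6 (*Ttr* 69.1 TPM) held 6.41 TPM of *1500015O10Rik* but 0.459 TPM of *Folr1*, and *Dynlrb2* and *Tmem212*, genes of motile cilia, stood at 7.24 and 10.9 TPM. In WT vehicle replicate 3 (51.5 TPM), Brd1+/- FLX replicate 1 (41.9 TPM) and Brd1+/- vehicle replicate 6 (29.1 TPM) *Folr1* was at 0.543, 0.244 and 0 TPM, within the range of the low libraries. Of the 50 members, 17 exceeded every low library in at least 1 of the 5, against 20.5% of all genes tested.

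The ciliary genes of ependyma went with *Ttr* as a list, though less tightly. Of 15 genes 12 were higher by at least 1, with a median of 2.47, and 1 of them, *Ak7*, separated the classes. *Dynlrb2*, a dynein light chain, was listed at 0 in 30 of 31 low libraries and in 3 high libraries, and reached 67.3 TPM. *Tmem212* was listed at 0 in all low libraries and in 4 high ones and reached 56.6 TPM. *Foxj1*, the transcription factor of motile ciliogenesis, had 2.24 to 11.4 TPM in low and 4.94 to 81.8 TPM in high libraries (difference 1.62). *Tppp3*, *Drc1* and *Zmynd10* differed by 0.30, 0.41 and 0.83. The median SD of the log2 ratio to *Ttr* was 1.13 for the 9 ciliary genes where it could be computed. Ciliary genes outside the list, named after their values were seen, moved likewise: *Drc7* held 1.12 to 86.5 TPM in high and at most 2.60 TPM in low libraries, and *Cfap52* at most 30.3 and 0.258 TPM.

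Promoter sequences from RefSeq (GRCm38.p6) were searched for the letters that Otx2-class homeodomain proteins and RFX factors, regulators of ciliary genes, are known to prefer. The 250 bases before each gene's RefSeq start were read on both strands. Of 78 promoter entries of list genes, 71 had the bases just after that start in a GENCODE transcript of the gene. The letters searched for the homeodomain proteins were TAATCC. For RFX factors they were GTTGCC, which cannot overlap with the first. TAATCC was present for 5 of the 42 choroid plexus members with an entry (11.9%), 1 of 11 ciliary genes (9.09%), 1 of 15 genes that separated the classes (6.67%) and 7.21% of 27025 genes in the table. GTTGCC was present for 6 of 42 members (14.3%), 5 of 11 ciliary genes (45.5%), 4 of 15 genes that separated the classes (26.7%) and 11.8% of all genes. A match is a description of letters and no evidence that a factor binds. Windows with a match to GTTGCC are shown for *Aqp1*, the member with the steadiest ratio to *Ttr*, for *Prr32* and *Steap1*, which separated the classes, and for the ciliary gene *Ccdc153* (2.13 to 90.2 TPM in high and 0 to 4.53 TPM in low libraries). They are printed 5′ to 3′ on the gene's strand with the match in capitals, and in *Steap1* the match is on the opposite strand. The RefSeq start of *Aqp1* lies upstream of its GENCODE start, with no GENCODE transcript of the gene just after it.
*Aqp1*, chr6:55336049-55336298, plus strand: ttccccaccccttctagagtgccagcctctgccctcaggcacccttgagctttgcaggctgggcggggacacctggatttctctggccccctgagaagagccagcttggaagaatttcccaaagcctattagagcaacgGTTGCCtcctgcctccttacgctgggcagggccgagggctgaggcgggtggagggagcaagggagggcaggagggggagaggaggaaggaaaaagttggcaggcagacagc
*Prr32*, chrX:45090654-45090903, plus strand: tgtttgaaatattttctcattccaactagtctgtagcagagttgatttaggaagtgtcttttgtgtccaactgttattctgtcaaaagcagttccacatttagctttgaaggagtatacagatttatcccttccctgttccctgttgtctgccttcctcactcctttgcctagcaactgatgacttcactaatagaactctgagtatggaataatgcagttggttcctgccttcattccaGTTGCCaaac
*Steap1*, chr5:5749318-5749567, minus strand: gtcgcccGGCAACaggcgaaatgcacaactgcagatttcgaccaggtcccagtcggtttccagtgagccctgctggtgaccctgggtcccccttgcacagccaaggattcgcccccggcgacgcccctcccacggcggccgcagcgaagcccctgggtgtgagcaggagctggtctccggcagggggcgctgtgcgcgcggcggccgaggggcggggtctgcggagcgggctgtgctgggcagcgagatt
*Ccdc153*, chr9:44240427-44240676, plus strand: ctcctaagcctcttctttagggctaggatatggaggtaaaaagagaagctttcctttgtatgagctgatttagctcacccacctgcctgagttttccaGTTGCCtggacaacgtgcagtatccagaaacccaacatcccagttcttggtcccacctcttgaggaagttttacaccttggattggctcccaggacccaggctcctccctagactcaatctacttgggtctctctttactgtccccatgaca
In *Prr32* the match lies next to the start, in *Steap1* near the far end of the window and in *Aqp1* and *Ccdc153* between.

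Lists for the other cells of the punch moved less. Meninges and stroma fibroblast genes had a median difference of 0.64, with 5 of 15 higher by at least 1, led by *Ogn* (1.65), while *Slc47a1* stood at −0.07. Their summed level ran from 17 to 343 TPM (median 38.9) in low and from 18.7 to 153 TPM (median 96.9) in high libraries. Without WT vehicle replicate 5 and WT FLX replicate 6, left out after their values were seen, low libraries reached at most 72.8 TPM, which 8 of 12 high libraries exceeded, and the list median was 0.70. Border macrophage genes had a median of 0.59 (3 of 8 higher by at least 1, *H2-Aa* 1.70, *Cd163* −0.07), and red blood cell genes 0.55 (1 of 5, *Alas2* 1.02, *Hba-a2* 0.49). Astrocyte, oligodendrocyte and mural cell genes had medians of 0.11, 0.11 and 0.10, with *Gfap* at 1.06 and *Aldh1l1* near 0 among astrocyte genes, *Mbp* at 0.26 and *Mag* at 0.09 among oligodendrocyte genes, and *Acta2* at 0.51 and *Kcnj8* at −0.13 among mural genes. Endothelial genes had a median of −0.01, from *Ly6c1* at −0.22 to *Esm1* at 1.17, and microglial genes −0.10, from *Tmem119* at −0.22 to *Aif1* at 0.06. No gene of these 8 lists separated the classes.

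Markers of neurons and of regions moved in both directions. Of 8 neuronal genes 7 were below 0, from *Slc32a1* (−0.60), and *Slc17a7*, the glutamate transporter of cortical and hippocampal neurons, was at 1.68 with ranges that overlapped (1.87 to 1346 TPM in low and 11.2 to 1246 TPM in high libraries). All 7 genes of striatal projection neurons were below 0, with a median of −1.0, from *Drd2* (−1.65) to *Ppp1r1b* (−0.18). Hippocampal genes had a median of 0.47, led by *Dsp* (2.72), a desmosome gene that epithelia also express, with *Grik4* lowest at −0.46. Genes of the amygdala had a median of 0.05 (*Tshz1* 0.36, *Foxp2* −0.72) and of thalamus and habenula −0.10 (*Lef1* 0.09, *Gbx2* −1.42). The part of these differences in tissue composition in the levels of choroid plexus genes was not tested.

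**Figure D5:**
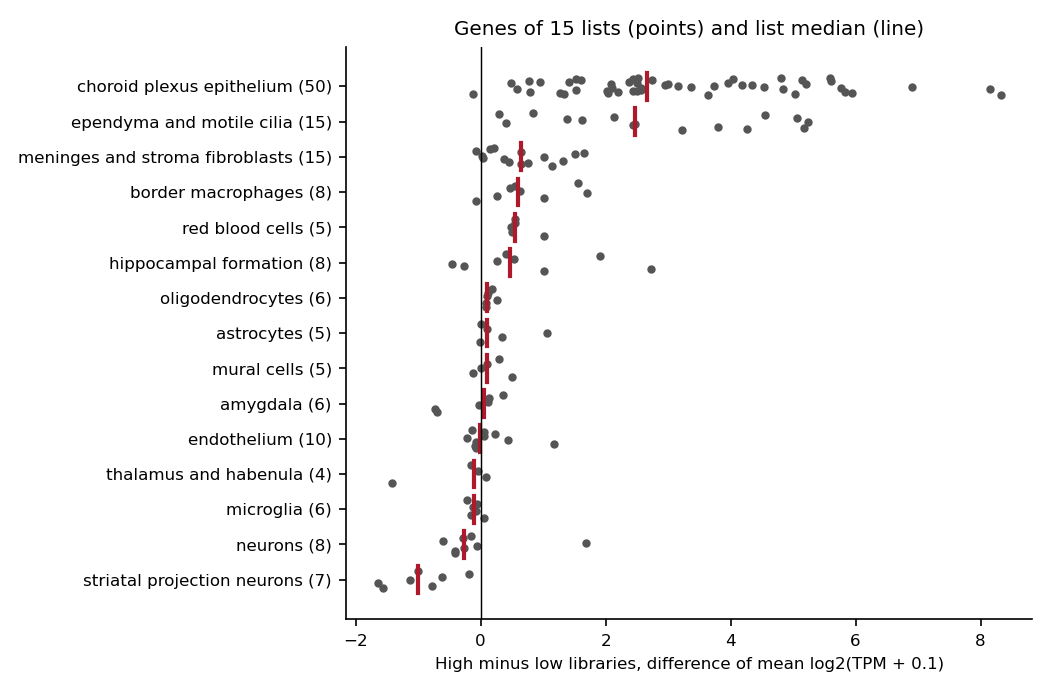
Difference of mean log2(TPM + 0.1) between high and low libraries for the genes of 15 lists (points, number of genes in parentheses), with the list median as a line. Choroid plexus and ciliary lists stand at 2.66 and 2.47, all others between −1.0 and 0.64.

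Genes lower in high libraries overlapped between the classes throughout. A few with large lower differences are named here, chosen after their values were seen. *Chat*, which makes acetylcholine, had 0 to 56.9 TPM (median 11.9) in low and 0 to 27.1 TPM (median 0.748) in high libraries. The transcription factor *Lhx8* (−2.47) and the vesicular transporter *Slc18a3* (−2.07) showed overlapping ranges of the same kind.

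High libraries were found in each of the 6 groups. They numbered 3 of 8 in each Brd1+/- group and 1 of 8 in each WT group, that is 9 of 24 Brd1+/- and 3 of 24 WT libraries. Fisher's exact test, two-sided, gave *p* = 0.0933 (adjusted *p* = 0.28 over 3 tests), so the difference in share did not pass the threshold of 0.05. With a limit of 1000 TPM the numbers were 5 of 24 and 3 of 24 (Fisher's exact *p* = 0.701). High libraries were 4 of 16 with vehicle, 4 of 16 with IMN and 4 of 16 with FLX (exact *p* = 1.0 for each drug against vehicle). The sample codes in the labels were divided into 4 ranges, the lower 2 holding the vehicle mice and the upper 2 the drug-treated mice. A wide gap in the codes separates vehicle from drug-treated mice. The limits within each of these sets were chosen and do not fall at the widest gaps there. Whether a range marks a batch is not stated. From the lowest to the highest range, high libraries were 1 of 3, 2 of 5, 5 of 11 and 1 of 5 of the Brd1+/- and 0 of 3, 1 of 5, 0 of 7 and 2 of 9 of the WT libraries. The share was higher in Brd1+/- than in WT libraries in 3 of 4 ranges and lower in the highest range. These counts are small, divide the same high libraries again and were not tested.

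*Ttr* and *Folr1* levels were then compared between the labelled groups, as a check of whether their spread follows genotype or drug. WT vehicle libraries had a median of 8.64 TPM of *Ttr* (4.22 to 28369) and Brd1+/- vehicle libraries 105 TPM (3.12 to 10275). With IMN the medians were 3.40 TPM in WT (0 to 1193) and 8.99 TPM in Brd1+/- mice (0 to 3311), and with FLX 6.42 TPM (1.85 to 8383) and 55.5 TPM (0.947 to 27594). In exact permutation tests of log2(TPM + 0.1), two-sided with n = 8 per group, the Brd1+/- minus WT difference in *Ttr* was 1.66 with vehicle (exact *p* = 0.442), 3.30 with IMN (exact *p* = 0.2) and 3.10 with FLX (exact *p* = 0.172). The smallest exact *p* among 14 tests was 0.14, for *Ttr* in WT IMN against WT vehicle mice (−3.34), and the adjusted permutation *p* was at least 0.702 throughout. *Folr1* differed by 1.5, 2.46 and 2.53 between genotypes with vehicle, IMN and FLX (exact *p* = 0.476, 0.179 and 0.263). The SD within groups was 2.52 to 5.56 on the log2 scale over both genes, and each of these differences was smaller than the SD of at least 1 of the groups compared.

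Across all genes, limma fits of the 7 comparisons of groups called 0 members of the choroid plexus list in each. The number of members tested was 42 to 48, since the filter left out members near 0 in most libraries of a comparison. *Krt8* and *Wfdc2* were in none of these fits, and *Folr1* and *1500015O10Rik* were only in some. The share of all genes called was 0.708%, 0.017% and 1.54% for Brd1+/- against WT with vehicle, IMN and FLX. It was 0.0% (with 1084 genes at an unadjusted limma *p* under 0.05) and 0.335% for IMN and FLX against vehicle in WT, and 0.776% and 0.731% in Brd1+/- mice. Members with an unadjusted limma *p* under 0.05 were 2 of 44, 4 of 44, 1 of 44, 0 of 42, 1 of 42, 3 of 48 and 0 of 46 in the same order. Over all genes tested these numbers were 2068 of 24279, 844 of 23581, 3928 of 23635, 1084 of 23644, 3949 of 23557, 2252 of 24225 and 1689 of 24336. Examples among the members were *Clic6* with IMN (Brd1+/- against WT, log2 difference 1.32 ± 0.47 SE, limma adjusted *p* = 1.0) and *Car14* with vehicle (1.69 ± 0.59 SE, limma adjusted *p* = 0.38). Both genes had levels of at least 1.09 TPM in every low library. Over the list, 32 of 44 members were higher in Brd1+/- than in WT mice with vehicle, 40 of 44 with IMN and 32 of 44 with FLX. The median log2 difference over all genes in these fits was 0.0313, 0.0062 and −0.0558. The members share the same few high libraries, so these counts are not independent. Without the high libraries they were 26 of 40, 17 of 37 and 16 of 39. The libraries left out were chosen by *Ttr* and were 3 of 8 Brd1+/- but 1 of 8 WT libraries in each comparison. Lower counts in Brd1+/- mice were thus partly built in. The members tested also changed, so the counts with and without these libraries are not comparable.

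Without the 12 high libraries 10 to 14 libraries remained in each comparison, and choroid plexus members were called in a single comparison. In WT FLX against WT vehicle mice (7 libraries each) *Enpp2* rose by 1.3 ± 0.295 (SE, limma adjusted *p* = 0.0472), *Slc4a2* by 0.58 ± 0.12 (limma adjusted *p* = 0.042) and *Cab39l* by 0.47 ± 0.10 (limma adjusted *p* = 0.0444), with 1.25% of all genes called. These 3 genes had means of at least 10 TPM in libraries with next to no *Ttr*. The oligodendrocyte sum had a median of 5380 TPM (1840 to 7970) in these WT FLX libraries and 1590 TPM (642 to 4770) in these WT vehicle libraries, and its part in the 3 calls was not tested. With the high libraries included, *Enpp2* had medians of 192 and 73.4 TPM in the same groups. In the other 6 comparisons 0 members were called without the high libraries. Members at an unadjusted limma *p* under 0.05 were 7 of 40, 0 of 37, 6 of 39, 7 of 38, 5 of 34 and 1 of 37 in the order above. Over all genes tested these numbers were 3173 of 22591, 636 of 22161, 3267 of 22393, 2400 of 23061, 1383 of 21338 and 1157 of 21565. The share of all genes called in these 6 was 0.12%, 0.00902%, 0.0%, 0.0%, 0.0422% and 0.0417%.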

How the data were processed

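RNA was extracted from amygdala punches and sequenced with TruSeq libraries, per the labels. Single-end reads were aligned by the authors with HISAT2 2.1.0 to GRCm38, and genes were quantified with StringTie 1.3.4, per the submitters' processing notes. The authors deposited TPM for 52636 genes in 48 libraries (1 column each, 0 columns unmapped), with column sums of 999524 to 999772. TPM keeps no depth, so no counting interval was computed, and values of exactly 0 are given as listed at 0. TPM is not a count, so the count test of the study was replaced by limma. Symbols and coordinates came from GENCODE M21 (99.7% of IDs found), an annotation release other than the authors'. The study does not state whether counting used strand.

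Values were transformed to log2(TPM + 0.1), on which a difference understates the change of low genes. Genes with at least 0.1 TPM in at least 8 libraries of a fit were used (of all 48 for high against low). The high libraries alone could satisfy this, so genes listed at 0 in low libraries entered only through the others. High and low libraries were compared by their mean log2 levels and ranges. Groups were compared with limma 3.58.1 (R 4.3.3, eBayes with a trended prior, no covariates, Benjamini-Hochberg adjusted p under 0.05), exact permutation tests over 12870 arrangements (smallest p 0.000155, adjusted over 14 tests) and Fisher's exact tests (scipy 1.17.1). All tests are two-sided, and p-values measure the spread between mice. With 1 library per mouse, this spread includes differences between punches. Named genes were *Ttr*, *Enpp2*, list members, up to 20 genes higher and 10 lower with no overlap between classes and at least 1 TPM on average in the class where they were higher, and the genes of each other list with the highest and lowest difference. Other ciliary genes, *Lbp*, *Chat*, *Lhx8* and *Slc18a3* were named after their values were seen. The members, the lists and the rule were chosen with earlier results of these data known. On data simulated for Brd1+/- vehicle against WT vehicle (24279 genes), limma called 141 of 200 changed genes, all in the right direction, and 6 unchanged genes. How limma performs for genes such as *Ttr* and *Folr1*, low in most libraries and far higher in a few, was not tested. Same-numbered replicates of 2 groups deviated together in no comparison as a whole (correlations −0.32 to 0.36), so replicate numbers were not taken to pair mice. Alternatives were pseudocounts of 0.01 and 1, no filter or at least 1 TPM in at least 8 libraries, median-ratio scaling, limits of 1000, 200 and 10 TPM, no trend, a replicate block, and leaving out high libraries.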

Additional observations from a re-analysis of the deposited data

Results flagged for a closer look

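Single libraries stood apart from the other 7 of their group in the level of choroid plexus genes. The gap to the nearest library was taken as a share of the whole range of the group on the log2(TPM + 0.1) scale. It was examined for *Ttr*, *Folr1* and *Enpp2* in the 6 groups. A chance rate for such gaps would assume normally distributed values. Levels of *Ttr* and *Folr1*, low in most libraries and far higher in a few, do not meet this. The shares therefore describe single libraries and carry no test. For *Ttr* the share was 0.718 in WT vehicle replicate 1, 0.542 in WT IMN replicate 1 and 0.739 in WT FLX replicate 2. For *Folr1* it was 0.723 in WT vehicle replicate 1, and 1.0 in WT IMN replicate 1 and WT FLX replicate 2, the other 7 libraries of both groups being listed at 0. For *Enpp2* it was 0.739 in WT vehicle replicate 1, 0.567 in WT FLX replicate 2 and 0.528 in Brd1+/- vehicle replicate 3. In each WT group this is the only high library for *Ttr*, while the Brd1+/- groups hold 3 high libraries each, so that no single one stands apart in *Ttr* there.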

How the results depend on the processing

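The median difference of the choroid plexus list was 2.13 to 3.44 under the 7 alternatives and 2.42 to 2.84 when 1 high library was left out, and 13 to 21 and 14 to 15 members separated the classes. The genes other than *Ttr* that did so rose from 18 to 62 with high libraries from 1000 TPM, and ranged from 18 to 28 when 1 high library was left out, with 28 reached without Brd1+/- vehicle replicate 8. The 905 genes higher by at least 1 became 2198 with a pseudocount of 0.01, 285 with a pseudocount of 1 and 601 with the filter at 1 TPM (840 to 1039 when 1 high library was left out). The 198 genes lower by at least 1 became 782, 26 and, with high libraries from 1000 TPM, 373 (172 to 234). Of 1021 values for 54 single genes 0 changed sign and 21 moved by 1 SD or more, all with another pseudocount. The number of members called between groups was 0 under each alternative, the replicate block included, apart from 3 in WT FLX against WT vehicle mice without the high libraries. Calls over all genes ranged from 24 to 294 (172 in the fit reported), 2 to 4 (4) and 0 to 398 (364) for Brd1+/- against WT with vehicle, IMN and FLX, from 0 to 287 (79) for FLX against vehicle in WT mice, and from 9 to 294 (188) and 9 to 275 (178) for IMN and FLX against vehicle in Brd1+/- mice. For IMN against vehicle in WT mice limma gave 0 under each. The cause of these shifts was not tested. With the replicate block the counts in this order were 63, 4, 46, 0, 87 and 81. In at most 4 of 8 pairs of a comparison was the same-number correlation over 0.1. All 56 alternative permutation results kept their direction, and the smallest adjusted permutation p was 0.328 (replicate block, exact p = 0.0234, *Ttr* in WT IMN against vehicle mice). The planned regression on *Ttr* within the libraries between the limits could not be fitted, since it needs 6 libraries and there were 5.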

Other observations

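A low library held some genes of the choroid plexus list at high levels beside little *Ttr*. WT FLX replicate 6, picked out after its values were seen, had 2.56 TPM of *Ttr* and 0 TPM of *Folr1*, yet 5.82 TPM of *Kcnj13*, 31.8 TPM of *Slc13a4* and 73.8 TPM of *Igf2*, against at most 0.33, 1.63 and 31.2 TPM in the other 30 low libraries. For 11 of the 50 choroid plexus members and 12 of the 15 meninges and stroma fibroblast genes it exceeded every other low library, as it did for 1567 or 5.61% of all genes tested. Its summed levels of red blood cell genes (979 TPM, at most 588 TPM in the other low libraries), border macrophage genes (32.3 and 11.9 TPM), astrocyte genes (1130 and 989 TPM) and endothelial genes (255 and 244 TPM) were also the highest of the low libraries. Among the fibroblast genes, *Slc47a1* stood at 11.2 TPM (at most 1.23 TPM in the other low and 0.266 TPM in the high libraries), *Slc22a6*, an organic anion transporter, at 10.5 TPM (at most 1.21 and 1.40 TPM) and *Aldh1a2*, which makes retinoic acid, at 25.2 TPM (at most 4.28 and 11.2 TPM). Its levels of these 3 fibroblast genes were thus above those of every high library.

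The summed fibroblast level was highest in another low library, WT vehicle replicate 5, through *Dcn* alone, at 322 TPM. The summed level of hippocampal genes in this library, 167 TPM, was also the highest of the low libraries (median 42.6 TPM). High libraries reached at most 110 TPM.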
